A study of Mus musculus with 16 samples.

Results

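The transcripts of adult hemoglobin and of its heme supply were followed in immune cells sorted from mouse brain. The 5 genes, Hba-a1, Hba-a2, Hbb-bs, Hbb-bt and Alas2, were taken by symbol from 18580 genes with a count in any library, and all 5 were found. The data were 16 libraries, 8 of macrophages (CD11b+ cells with high CD45) and 8 of microglia (CD11b+ cells with low or intermediate CD45), separated by FACS and sequenced by SMART-seq2, a full-length cDNA method. In each population there was 1 library for each combination of sex (female or male), genotype (CD163KO, carrying the CD163tm1.1(KOMP)Vlcg allele, or WT littermates on C57BL/6N) and injection into the striatum (α-syn MONO, the monomeric protein, or α-syn PFF, pre-formed fibrils). All mice, the MONO groups included, were injected in both hemispheres at 12 weeks of age with murine α-syn, were killed 2 months later and were perfused with PBS before the brain was taken. Groups held 4 to 7 mice. The methods speak of triplicates for sequencing, and whether a table pools them is not given in the sources used here, so p-values measure the spread between these tables only. The male CD163KO MONO mice were excluded by the study for inconsistent technical replicates, and their libraries enter the description but not the tests.

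Hemoglobin, the oxygen carrier of red cells, is a tetramer of α-globin and β-globin chains, each holding a heme. In adult C57BL/6 mice the α-globin chains come from Hba-a1 and Hba-a2 and the β-globin chains from Hbb-bs and Hbb-bt, while Alas2 encodes the erythroid form of the enzyme that starts heme synthesis. Red cells lose their nucleus but keep globin mRNA while they mature, so globin reads are a common part of RNA from tissue that held blood. CD163, the receptor removed in the knockout, takes up hemoglobin bound to haptoglobin on macrophages, after which heme oxygenase breaks the heme down and ferritin stores its iron. In brain, CD163 is known from macrophages of the meninges, the perivascular space and the choroid plexus and hardly from microglia.

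The tables list 1 RefSeq transcript each for Hba-a1 (569 bases long), Hba-a2 (587), Hbb-bs (639) and Hbb-bt (646), and 2 for Alas2. In RefSeq's annotation of GRCm38.p6, Hba-a1 lies at chr11:32283672-32284486 and Hba-a2 at chr11:32296492-32297310, Hbb-bt at chr7:103812524-103813923 and Hbb-bs at chr7:103826523-103827928, and Alas2 at chrX:150547417-150570622. The paralogs are close to identical. In GENCODE's transcripts of the same build, the coding sequences of Hba-a1 and Hba-a2 are both 429 bases long and differ at 1 position, C381T, counted from the first base of the start codon. Those of Hbb-bs and Hbb-bt are both 444 bases long and differ at 1 position, C417T. These stretches, from position 356 to 406 for the Hba genes and from 392 to 442 for the Hbb genes, are shown because they hold every coding base that tells the copies apart, with that base in capitals.
Hba-a1: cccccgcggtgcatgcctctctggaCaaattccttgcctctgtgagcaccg
Hba-a2: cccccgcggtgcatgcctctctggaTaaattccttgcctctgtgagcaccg
Hbb-bs: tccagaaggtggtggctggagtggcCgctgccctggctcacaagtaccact
Hbb-bt: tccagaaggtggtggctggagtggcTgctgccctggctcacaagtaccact

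Among windows of 50 bases, 87.1% of those in the Hba coding sequences and 92.9% of those in the Hbb coding sequences also occur in the other copy, so most coding reads fit both. How RSEM divided reads between the copies is therefore uncertain, and sums over Hba-a1 and Hba-a2 (Hba) and over Hbb-bs and Hbb-bt (Hbb) are given beside the single genes. The genes can also be set side by side before their start sites. RefSeq's promoter table for GRCm38.p6 matched all 5, and the 150 bases before the start are shown for 4 of them, since the Hba-a2 window shares a run of 147 bases with that of Hba-a1. The windows are chr11:32283522-32283671 (plus strand) for Hba-a1, chr7:103827929-103828078 (minus strand) for Hbb-bs, chr7:103813924-103814073 (minus strand) for Hbb-bt and chrX:150547267-150547416 (plus strand) for Alas2. Capitals mark matches on either strand to 4 motifs, which are the TATA box (searched as TATAA), the CCAAT box (searched as CCAAT), the CACCC box (searched as CACCC) and the GATA motif. The last was searched as AGATAA, as AGATAG, and as both of these with T in place of the first base.
Hba-a1: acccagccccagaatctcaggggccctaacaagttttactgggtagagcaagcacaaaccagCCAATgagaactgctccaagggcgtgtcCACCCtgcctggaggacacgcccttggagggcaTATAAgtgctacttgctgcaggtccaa
Hbb-bs: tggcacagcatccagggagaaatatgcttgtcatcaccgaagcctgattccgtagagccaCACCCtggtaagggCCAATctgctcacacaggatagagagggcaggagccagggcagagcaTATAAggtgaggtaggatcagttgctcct
Hbb-bt: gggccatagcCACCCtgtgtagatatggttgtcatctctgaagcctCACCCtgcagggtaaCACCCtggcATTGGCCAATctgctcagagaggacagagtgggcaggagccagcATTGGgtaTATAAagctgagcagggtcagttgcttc
Alas2: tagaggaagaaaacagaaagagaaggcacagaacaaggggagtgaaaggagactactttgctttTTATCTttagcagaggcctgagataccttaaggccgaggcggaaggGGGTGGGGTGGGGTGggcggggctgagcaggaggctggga

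The 3 globin windows each hold TATAA, between 27 and 29 bases before the start, together with CCAAT and CACCC. Hbb-bt has 3 matches to CCAAT, of which 2 abut on opposite strands, and 3 to CACCC. The Alas2 window holds none of TATAA and CCAAT, 3 matches to CACCC end to end and 1 to a GATA word, 86 bases before the start. None of the globin windows holds a GATA word. Of all 32851 windows of this length, 14.2% hold TATAA, 24.5% CCAAT, 37.4% CACCC and 16% a GATA word.

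The libraries held between 8648751 and 21433841 expected counts. Microglia markers (12 genes, P2ry12 and Tmem119 among them) summed to between 19815 and 46096 FPKM in the microglia libraries and to between 1221 and 2830 in those of macrophages. The macrophage libraries held 10 markers of border-associated macrophages (1522 to 4170 FPKM, against 25.4 to 137 in microglia) but also 11 neutrophil genes at 22172 to 134652 FPKM, against 953 to 2725 in microglia, and their part in the results was not tested. Of 11 genes of platelets, which travel with red cells in blood, between 6 and 11 were at 0 in each macrophage library, with sums of 0 to 18.4 FPKM, and between 3 and 7 in each microglia library, with sums of 9.40 to 54.0. In microglia Gp9 held 6.58 to 47.02 FPKM and Treml1 1.84 to 13.99. There Clec1b reached 4.84 and every other gene of the list at most 0.83, with Ppbp at most 0.05 and Tubb1 at most 0.06. The highest macrophage sum, in male CD163KO MONO, was Itga2b alone. These sums are therefore not read as an amount of platelet RNA. Counts of 4 Y-linked genes summed to 0 to 2 in 7 of the 8 libraries labelled female and to 350 to 6545 in those labelled male, and to 799 in the microglia library labelled female CD163KO MONO. The libraries of male WT PFF and male CD163KO MONO macrophages listed 9524 and 11800 transcripts, fewer than the others. In macrophages Cd163 followed the labels, with 16.2, 7.95, 20.5 and 65.3 FPKM in female WT MONO, female WT PFF, male WT MONO and male WT PFF and at most 0.01 in the 4 CD163KO libraries. In microglia it did not, with 46, 101, 0 and 1 counts in the WT libraries in the same order and 23, 11, 10 and 5 in those labelled female CD163KO MONO, female CD163KO PFF, male CD163KO MONO and male CD163KO PFF, so directions drawn between genotypes in microglia are those of the libraries as labelled.

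Globin transcripts were present in every library, and Hba-a1 was the most abundant of them by FPKM in 15 of 16. All levels here are FPKM, which are per length and so can be compared between genes, and a lower level in bulk RNA cannot separate fewer cells that hold the transcript from less of it per cell. In macrophages Hba-a1 ranged from 73.3 to 1034 FPKM over the 8 libraries with a median of 108, Hba-a2 from 28.1 to 755 with a median of 86.4, and Hbb-bs from 15.2 to 249.6 with a median of 27.2. In microglia Hba-a1 ranged from 42.4 to 352 FPKM with a median of 119.5, Hba-a2 from 30.6 to 172 with a median of 72.1, and Hbb-bs from 6.93 to 114 with a median of 48.7. The order Hba-a1, Hba-a2, Hbb-bs, Hbb-bt was the same for the medians of both populations, although the ranges of neighbours in that order overlapped. Hba-a1 stood above at least 91.9% of the genes with an FPKM above 0 in every library.

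The minor β-globin Hbb-bt and the heme enzyme Alas2 were far lower. Hbb-bt ranged from 0 to 37.6 FPKM in macrophages and from 0 to 20.2 in microglia, with medians of 5.20 and 8.46. It was at 0 counts in male CD163KO MONO macrophages, beside 212 counts of Hbb-bs, and in female CD163KO MONO microglia, beside 395.5 counts of Hbb-bs. Alas2 reached 1.76 FPKM in macrophages and 3.38 in microglia, and both of these highest values were in male WT MONO libraries. In macrophages Alas2 had 0 counts in female CD163KO MONO, female CD163KO PFF and male CD163KO MONO, where 3 counts, the limit that a count of 0 allows, would be 0.242, 0.246 and 0.159 CPM. In microglia it had 0 counts in female CD163KO PFF and female WT MONO, with limits of 0.175 and 0.344 CPM. These limits, like the intervals below, cover counting error only.

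Together the 4 globins were a small part of every library, and 1 library stood well above the rest. They took 0.109% of the counts of female WT MONO macrophages (95% Wilson interval 0.107% to 0.111%). In the other 15 libraries their share lay between 0.00428% (0.00399% to 0.0046%), in male WT PFF microglia, and 0.0342% (0.0330% to 0.0355%), in male WT MONO microglia. The same female WT MONO macrophage library held the highest sum of 8 choroid plexus genes, 12726 FPKM, against 84.9 to 4425 in the other macrophage libraries, and their part in its globin level was not tested. In microglia that sum was highest in male WT MONO (2550 FPKM) and lowest in male WT PFF (266 FPKM), the libraries with the highest and the lowest globin share. The sums of monocyte genes (76.9 and 7.52 FPKM) and of border-associated macrophage genes (137 and 25.4) had the same extremes. That of neutrophil genes was highest in male WT MONO (2725) but lowest in male CD163KO MONO (953). Microglia markers were highest in male WT PFF (46096). The part of these lists in the globin levels was not tested. On FPKM the summed Hba level was 1789 in female WT MONO macrophages, 401 in female WT PFF, 157 in female CD163KO MONO, 178 in female CD163KO PFF, 170.5 in male WT MONO, 408 in male WT PFF, 138 in male CD163KO MONO and 163 in male CD163KO PFF. In microglia it was, in the same order, 189, 204, 150.1, 141, 524, 73.0, 206 and 344. The highest and the lowest library thus belonged to different combinations in the 2 populations.

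**Figure D1:**
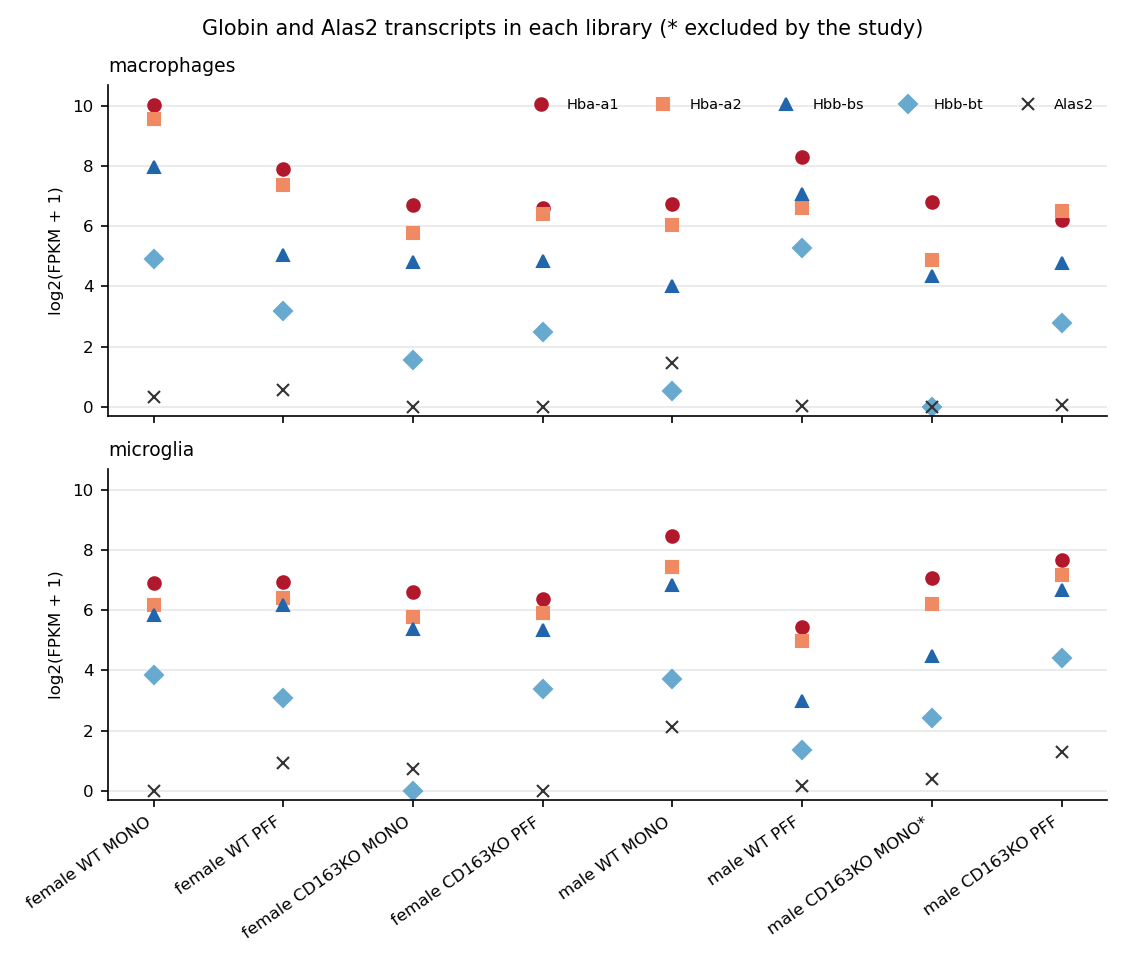
Level of Hba-a1, Hba-a2, Hbb-bs, Hbb-bt and Alas2 as log2(FPKM + 1) in each of the 8 macrophage libraries (top) and 8 microglia libraries (bottom), 1 point per gene and library, with the combination excluded by the study marked by an asterisk. Female WT MONO macrophages hold the highest Hba-a1 (1034 FPKM), and Alas2 stays at or under 3.38 FPKM in every library.

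The ratio of α-globin to β-globin was higher in macrophages in 6 of the 8 combinations and lower in the other two. This ratio of summed Hba to summed Hbb FPKM is taken within a library, so no scaling between libraries enters it. In macrophages it was 6.42 in female WT MONO, 10.1 in female WT PFF, 5.44 in female CD163KO MONO, 5.55 in female CD163KO PFF, 10.9 in male WT MONO, 2.38 in male WT PFF, 7.18 in male CD163KO MONO and 5.07 in male CD163KO PFF. In microglia it was, in the same order, 2.71, 2.58, 3.66, 2.86, 4.14, 8.59, 8.13 and 2.82. It was higher in macrophages for every combination except male WT PFF and male CD163KO MONO, and it was not tested, since it was looked at after the values were seen. The microglia libraries of those 2 combinations stood apart, with ratios of 8.59 and 8.13 where the other 6 lay between 2.58 and 4.14. The male WT PFF macrophage library did so too, at 2.38 where the other 7 lay between 5.07 and 10.9.

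The division within the paralog pairs varied between libraries. Hba-a1 took between 57.2% and 66.4% of the Hba counts in microglia and between 44.0% and 79.0% in macrophages. The extremes were male CD163KO PFF macrophages, at 44.0% (95% Wilson interval 41.8% to 46.3%), and male CD163KO MONO macrophages, at 79.0% (76.8% to 81.1%). These intervals cover read counting only and not RSEM's split of reads that fit both copies, which rests on the positions shown above and on the ends of the transcripts. Hbb-bt took at most 22.1% of the Hbb counts in macrophages and at most 19.5% in microglia. Its count of 0 of 395.5 in female CD163KO MONO microglia allows a share of up to 0.961% by the Wilson interval. Alas2 was highest relative to the globins in male WT MONO, with 64 counts beside 1871 globin counts in macrophages and 55 beside 2959 in microglia, whereas female WT MONO macrophages held 7 Alas2 counts beside 15090 globin counts.

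**Figure D2:**
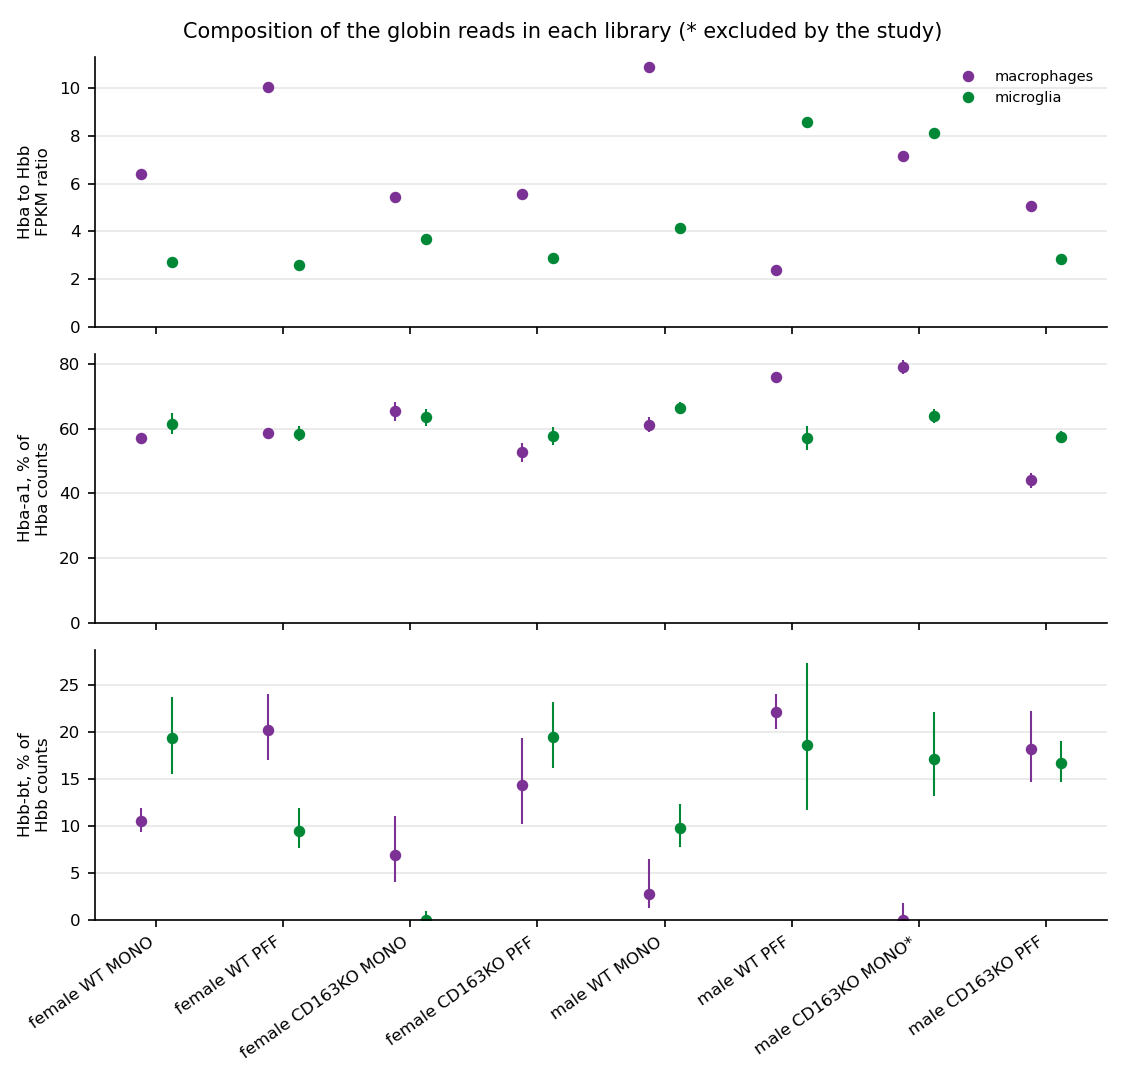
Composition of the globin reads in each library of macrophages (purple) and microglia (green): the ratio of Hba to Hbb FPKM (top), Hba-a1 as a percent of Hba counts (middle) and Hbb-bt as a percent of Hbb counts (bottom), with 95% Wilson intervals as bars. The ratio is higher in macrophages in 6 of 8 combinations and lower in male WT PFF (2.38 against 8.59).

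Whether the transcripts varied together was examined for 5 relations over the 7 libraries of a population or the 7 matched combinations, on log2(CPM + 1) with TMM scaling, a scaling by edgeR that evens out differences in RNA composition. In macrophages Hbb-bs rose with Hba-a1 (Pearson's r = 0.89, exact permutation p = 0.00139, adjusted over the 5 relations 0.00694, and Spearman's rho = 0.93, exact p = 0.00675, adjusted 0.0337). Without the 2 libraries farthest from the median of Hbb-bs, r was 0.71 over 5 libraries. On log2(FPKM + 1) this pair gave r = 0.90 (exact permutation p = 0.00714, adjusted 0.0179) and rho = 0.75 (exact p = 0.0663, adjusted 0.11), and r was 0.34 without the 2 farthest, so there it rested on them. In microglia the same pair gave r = 0.63 (exact permutation p = 0.13, adjusted 0.216) and rho = 0.64 (exact p = 0.139, adjusted 0.231), and r was -0.28 without the 2 farthest, so that value rested on them. With log2(FPKM + 1) the microglia pair gave r = 0.91 (exact permutation p = 0.000794, adjusted 0.00397) and rho = 1.00 (exact p = 0.000397, adjusted 0.00198), and r was 0.96 without the 2 farthest, so the relation depended on the scaling. Hbb-bs and Alas2 gave r = -0.26 in macrophages (exact permutation p = 0.556, adjusted 0.556) with rho = 0.054 (exact p = 0.919, adjusted 0.919), and r was 0.56 without the 2 farthest. In microglia they gave r = 0.79 (exact permutation p = 0.0329, adjusted 0.0823) with rho = 0.79 (exact p = 0.0413, adjusted 0.103), and r was 0.26 without the 2 farthest. Between the populations Hbb-bs gave r = -0.39 over the matched combinations (exact permutation p = 0.41, adjusted 0.513) with rho = -0.32 (exact p = 0.498, adjusted 0.622), and r was 0.038 without the 2 farthest. All genes of a library share its scaling factor, and no batch is given for single libraries.

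The α-globin genes were lower in microglia than in matched macrophages on the TMM scale, and the direction held for 6 of 7 combinations. In TMM-scaled CPM, Hba-a1 was 766, 385, 118, 78.9, 61.6, 123 and 91.8 in the macrophages of female WT MONO, female WT PFF, female CD163KO MONO, female CD163KO PFF, male WT MONO, male WT PFF and male CD163KO PFF. The microglia held 28.8, 31.4, 25.4, 21.6, 90.05, 50.3 and 52.9 in the same order, so male WT MONO was the exception. With edgeR's quasi-likelihood test and the combination as a block, Hba-a1 differed by -1.94 (log2 fold change, microglia against macrophages, SE 0.56, adjusted p = 0.0324) and Hba-a2 by -1.97 (SE 0.59, adjusted p = 0.0387). Both were called at an adjusted p of at most 0.05 and a fold of at least 2, in a comparison where 16.9% of the 13704 genes tested were called. Hbb-bs (-1.32, SE 0.57, adjusted p = 0.142), Hbb-bt (-1.87, SE 1.25, adjusted p = 0.326) and Alas2 (0.70, SE 1.94, adjusted p = 0.837) were not called. The exact sign-flip permutation test over the 7 pairs, 2-sided and not adjusted, gave p = 0.0312 for Hba-a1, 0.0469 for Hba-a2, 0.109 for Hbb-bs, 0.0938 for Hbb-bt and 0.906 for Alas2, where 0.0156 is the smallest it can give.

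Macrophage libraries came from 10000 to 30000 sorted cells and those of microglia from 200000 to 500000, so the number of cells and the population cannot be told apart. The calls rested on the scaling. The TMM factors of 6 microglia libraries were 1.95 to 2.09, and those of male CD163KO MONO and male WT PFF were 0.819 and 0.431. Among macrophages 6 libraries had factors of 0.324 to 0.875, and male CD163KO MONO and male WT PFF had 1.56 and 1.34. The median log2 fold change of all genes tested was 0.37 with TMM scaling and 1.96 with library totals alone, and the genes called split into 852 higher and 1459 lower with TMM scaling and into 5707 higher and 597 lower with library totals. With library totals the edgeR values were -0.55 for Hba-a1, -0.58 for Hba-a2, 0.37 for Hbb-bs and -0.30 for Hbb-bt, none of them called. On FPKM, Hba-a1 was lower in microglia in 5 of 8 combinations and Hbb-bs in 2 of 8. With the male CD163KO MONO pair included, neither Hba gene was called (-1.55, adjusted p = 0.107 and -1.50, adjusted p = 0.168). Without the female CD163KO MONO, female CD163KO PFF, female WT MONO or female WT PFF pair in turn, 0 of the 5 genes were called by edgeR, and Hba-a1 had values of -1.89, -1.97, -1.52 and -1.63. Without the male CD163KO PFF pair 1 was called, without that of male WT PFF 2 and without that of male WT MONO 3. Over all genes, 4042 were called without the male WT PFF pair and 1707 to 1754 without any other pair.

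**Figure D3:**
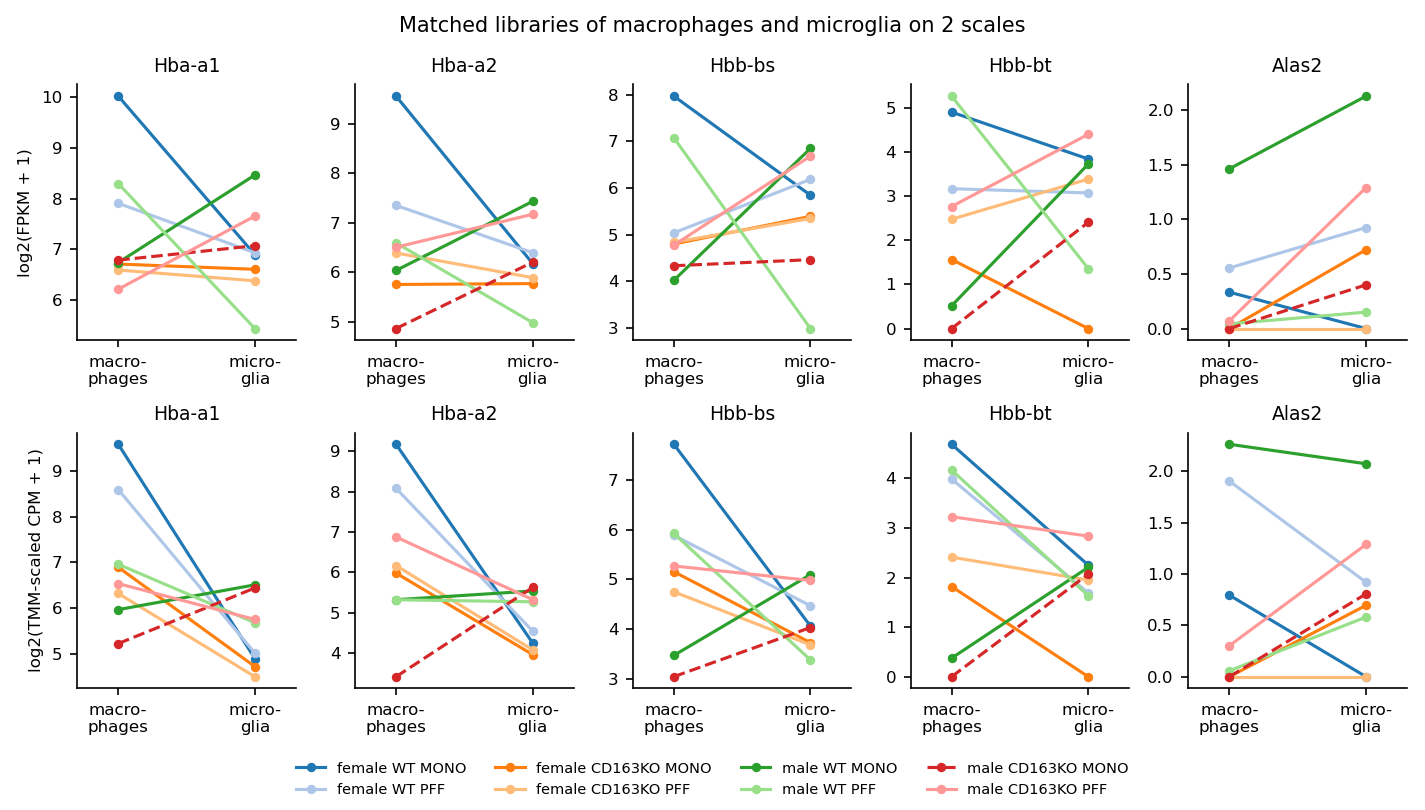
Each gene in matched libraries of macrophages and microglia, joined by a line per combination (dashed, the combination excluded by the study), as log2(FPKM + 1) in the top row and log2(TMM-scaled CPM + 1) in the bottom row. Hba-a1 is lower in microglia in 5 of 8 combinations on FPKM and in 6 of 8 on the TMM scale.

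Hba-a1 was lower by FPKM in the 3 CD163KO macrophage libraries kept in the tests than in any WT one. The Hba sum was not, and no globin gene was called. Hba-a1 was 104, 95.5 and 73.3 FPKM in female CD163KO MONO, female CD163KO PFF and male CD163KO PFF macrophages, against 1034, 239, 106 and 313 in female WT MONO, female WT PFF, male WT MONO and male WT PFF. For Hba-a1 these 3 libraries did not overlap the 4 WT libraries on this scale. How many of all genes separate them so was not counted. The male CD163KO MONO library, left out of the tests, was at 109 FPKM, above male WT MONO. Hba-a2 overlapped, with 82.9 FPKM in female CD163KO PFF and 64.7 in male WT MONO. The Hba sum did so too, with 178 and 170.5 FPKM in these libraries. How reads were divided between the copies is uncertain. In this comparison edgeR called 0.00834% of the 11988 genes tested, namely Cd163 alone. On the TMM scale Hba-a1 overlapped too, because male WT MONO held 61.6 and female CD163KO MONO 118 CPM. Hbb-bs was 26.8, 27.6 and 26.4 FPKM in the CD163KO libraries and 249.6, 31.9, 15.2 and 134 in the WT libraries, which lay on both sides. The edgeR log2 fold change, CD163KO against WT, was -1.47 for Hba-a1 (SE 0.65, adjusted p = 1.00), -0.80 for Hba-a2, -1.18 for Hbb-bs and -1.65 for Hbb-bt, and that of Cd163 was -11.35 (adjusted p = 0.0102). None of the 5 reached an unadjusted p under 0.05 in edgeR with TMM scaling. With such a p there were 2 in edgeR with library totals, 1 without a filter, 1 with male CD163KO MONO, 1 in DESeq2 and 2 in limma on log2(FPKM + 1), and 0 were called in each. Without the female WT MONO library the values were -0.89 for Hba-a1, -0.24 for Hba-a2 and -0.16 for Hbb-bs. Among the CD163KO and WT macrophages kept, 7 endothelial genes had a median log2 fold change of -1.85, 7 genes of T and NK cells one of -1.38 and the 8 choroid plexus genes one of -1.07, against 0.14 over all genes. It was 0.96 for B cells, 0.50 for neutrophils, 0.36 for monocytes, 0.33 for the 4 platelet genes tested and 0.33 for border-associated macrophages. No gene of these lists was called, and their part in the globin values was not tested. Alas2 had 0, 0 and 2 counts in the CD163KO libraries and 7, 19, 64 and 1 in the WT libraries.

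In microglia the libraries labelled CD163KO and WT, which Cd163 itself did not separate, overlapped for all 5 genes. Hba-a1 was 96.5, 82.3 and 200.5 FPKM in female CD163KO MONO, female CD163KO PFF and male CD163KO PFF and 118, 121, 352 and 42.4 in female WT MONO, female WT PFF, male WT MONO and male WT PFF. The edgeR log2 fold change was -0.33 for Hba-a1 (SE 0.28), -0.31 for Hba-a2 (SE 0.29) and -0.11 for Hbb-bs (SE 0.47), each with an adjusted p of 1.00, and 0% of 12725 genes were called. With library totals these 3 values were 0.021, 0.074 and 0.087. No gene among the 5 had an unadjusted p under 0.05 by edgeR, DESeq2 or limma.

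PFF and MONO libraries were not separated by any of the 5 genes. In macrophages Hbb-bs was 249.6, 26.8 and 15.2 FPKM in female WT MONO, female CD163KO MONO and male WT MONO and 31.9, 27.6, 134 and 26.4 in female WT PFF, female CD163KO PFF, male WT PFF and male CD163KO PFF. The MONO libraries thus included both the highest and the lowest value. The edgeR log2 fold change, PFF against MONO, was 0.030 for Hba-a1 (SE 0.70), 0.072 for Hba-a2 (SE 1.00), -0.026 for Hbb-bs (SE 1.06) and 1.32 for Hbb-bt (SE 1.98), with 0% of 11988 genes called. In microglia Hbb-bs was 56.5, 41.0 and 114 FPKM in female WT MONO, female CD163KO MONO and male WT MONO and 71.7, 39.7, 6.93 and 102 in female WT PFF, female CD163KO PFF, male WT PFF and male CD163KO PFF. Here the lowest value was in a PFF library and the ranges overlapped. The values were -0.26 for Hba-a1 (SE 0.28), 0.13 for Hba-a2 (SE 0.29), -0.11 for Hbb-bs (SE 0.47) and 0.85 for Hbb-bt (SE 1.99), with 0% of 12725 genes called. In both populations none of the 5 had an unadjusted p under 0.05 by edgeR, DESeq2 or limma, and several of these small values changed sign with the scaling or with 1 library left out.

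The α-globin values were higher in males in microglia and higher in females in macrophages, and neither difference was called. In TMM-scaled CPM, Hba-a1 was 28.8, 31.4, 25.4 and 21.6 in the female microglia libraries (WT MONO, WT PFF, CD163KO MONO and CD163KO PFF) and 90.05, 50.3 and 52.9 in the male ones (WT MONO, WT PFF and CD163KO PFF). Every male library was above every female library for Hba-a1 and for Hba-a2 (14.6 to 22.3 in females and 37.6 to 45.5 in males), where edgeR called 0% of 12725 genes. These 2 genes share most coding reads and the scaling factor of each library, so they are not independent. How many of all genes separate the sexes this way was not counted. The log2 fold change, males against females, was 1.24 for Hba-a1 (SE 0.28, edgeR adjusted p = 1.00) and 1.17 for Hba-a2 (SE 0.29, edgeR adjusted p = 1.00), and these were the 2 of the 5 genes with an unadjusted p under 0.05. On FPKM the sexes overlapped, because male WT PFF held the lowest value of all microglia, 42.4, and limma on log2(FPKM + 1) gave 0.66 for Hba-a1, while library totals gave 0.86. Without the library labelled female CD163KO MONO, in which Y-linked counts were found, Hba-a1 was at 1.23. Hbb-bs (0.69, SE 0.45), Hbb-bt (0.87, SE 1.42) and Alas2 (2.07, SE 2.18) had larger errors relative to their size.

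In macrophages the female libraries held the higher α-globin values on the TMM scale, 766, 385, 118 and 78.9 for Hba-a1 against 61.6, 123 and 91.8 in males, and they overlapped. The edgeR log2 fold change, males against females, was -1.55 for Hba-a1 (SE 0.70, adjusted p = 1.00), -1.57 for Hba-a2 (SE 1.01) and -0.95 for Hbb-bs (SE 1.02), with 0% of 11988 genes called and 0 of the 5 at an unadjusted p under 0.05. The male effect of Hba-a1 was larger in microglia than in macrophages by 2.83 on the log2 scale (SE 0.79, edgeR adjusted p = 1.00) and that of Hba-a2 by 2.88 (SE 0.92, edgeR adjusted p = 1.00). No gene of 13704 was called in that test (0%), and with library totals the values were 1.71 and 1.66. Some marker lists of other cells lay in the same direction as the globins and others did not, and no gene of them was called. In macrophages, males against females, the median log2 fold change was -4.49 for the 4 platelet genes tested, -3.48 for the 8 choroid plexus genes and -1.74 for the 7 endothelial genes tested, against -0.18 over all genes, while it was 1.10 for neutrophil precursors, 0.73 for neutrophils, 0.67 for monocytes and 0.43 for B cells. In microglia it was 1.47 for the 11 neutrophil genes, of which 6 had an unadjusted p under 0.05, 1.39 for the 5 platelet genes tested and 1.16 for the 5 monocyte genes, against 0.020 over all genes, while it was -0.70 for pituitary genes and -0.23 for endothelial genes. The part of these lists in the globin values was not tested. Platelet medians, here and between CD163KO and WT, are like the platelet sums not read as an amount of platelet RNA.

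The remaining tests of differences between effects called none of the 5 genes. They were the difference of the PFF effect between CD163KO and WT in macrophages (0% of 13020 genes called) and in microglia (0.0211% of 14225), and the difference between the populations of the PFF effect (0% of 13704) and of the CD163KO effect (0% of 13704). The tests between CD163KO and WT rest on a single CD163KO MONO library per population, female CD163KO MONO, which in microglia is the one with Y-linked counts, so its spread is assumed to be that of the other groups. In these 4 tests, 1 value had an unadjusted p under 0.05 by edgeR, that of Hbb-bt in microglia, which rests on the count of 0 in female CD163KO MONO. Over all genes, edgeR's unadjusted p was under 0.05 for 125, 79 and 152 genes for PFF, CD163KO and sex in macrophages and for 765, 166 and 215 in microglia, where DESeq2 called 8, 2 and 17 and then 26, 3 and 20 genes and limma 2, 4 and 8 and then 0, 0 and 3. In the differences of the PFF, CD163KO and male effects between the populations it was under 0.05 for 122, 84 and 138 genes, with 39, 32 and 54 called by DESeq2 and 0 by limma in each. In the difference of the PFF effect between the genotypes it was so for 59 genes in macrophages (16 called by DESeq2, 6 by limma) and 679 in microglia (29 and 2).

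**Figure D4:**
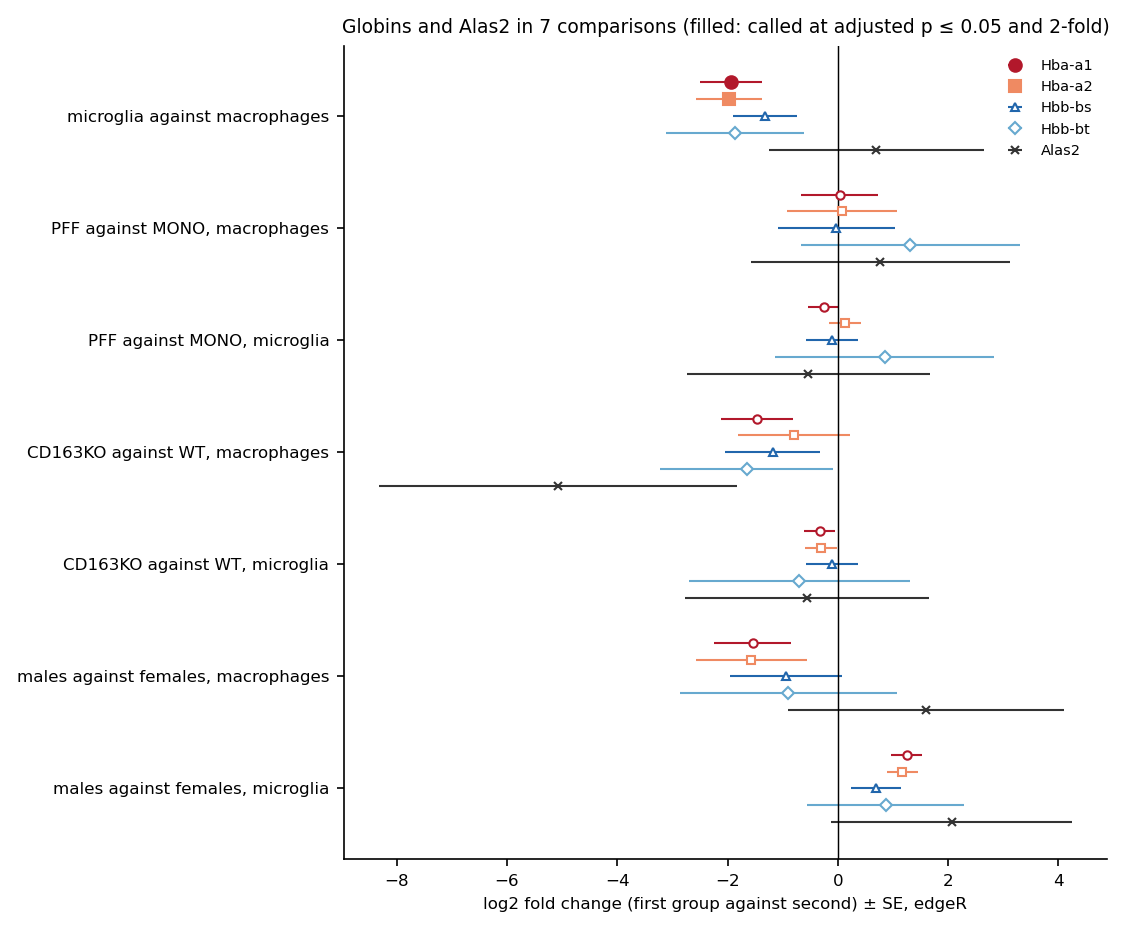
Log2 fold change of each gene with its standard error (bars) from edgeR's quasi-likelihood test in 7 comparisons, first group against second, with filled symbols for genes called at an adjusted p of at most 0.05 and a fold of at least 2. The called values are those of Hba-a1 (-1.94) and Hba-a2 (-1.97) for microglia against macrophages, which were not called with library totals alone.

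Some defining genes of red cell precursors were at or near 0 in these libraries, while other genes of the same lists were detected. Of 10 other globin genes, embryonic ones included, 6 were in no library, and Hbb-b1 was the highest with at most 2.21 FPKM, in female WT MONO macrophages. Neither Hbb-b1 nor Hbb-b2 is among the adult β-globin genes given above for C57BL/6, so their low values do not bear on red cell precursors. Of 18 red cell membrane genes, 11 stayed under 1 FPKM in every library. Kel (the Kell antigen) had no count, and Slc4a1 (band 3, the anion exchanger) had counts only in the 2 libraries of female WT MONO, at 0.78 FPKM in macrophages and 0.51 in microglia. Of 18 genes typical of reticulocytes, 7 stayed under 1 FPKM in every library, and Ahsp, the chaperone of free α-globin, had no count. Of 8 erythroid transcription factors and receptors, 6 reached 1 FPKM in a library, and the 2 that did not, Gata1 and Klf1, had a count in 1 library each, with at most 0.18 and 0.08 FPKM. The library with the highest globin level was thus 1 of 2 with Slc4a1.

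Other members of the erythroid lists are expressed more widely, and 5 of those tested were called between the populations, in the comparison where 16.9% of all genes were called. Nfe2, a transcription factor also used in megakaryocytes and neutrophils, was lower in microglia (-10.17, edgeR adjusted p = 3.28e-05) and Lmo2, a cofactor of blood progenitors, was higher (1.40, adjusted p = 0.00794). These were the 2 calls among 5 of 8 factors that could be tested. Of 11 membrane genes tested, Gypc was called, lower in microglia (-8.85, adjusted p = 0.0152), and of 11 reticulocyte genes tested Slc14a1, a urea transporter, was lower (-4.00, adjusted p = 0.0235) and Tent5c, a poly(A) polymerase, higher (3.68, adjusted p = 0.0356). With library totals the calls were 3 higher and 1 lower for the factors, 3 higher and 1 lower for the membrane genes and 4 higher and 0 lower for the reticulocyte genes. None of the 8 enzymes of heme synthesis outside the erythroid form and none of 7 carriers of iron and heme in mitochondria were called by edgeR, with 3 and 2 at an unadjusted p under 0.05, and DESeq2 called 2 of each, all higher in microglia. With library totals edgeR called 5 of the enzymes and 3 of the carriers higher, and limma on log2(FPKM + 1) called as many. With library totals 6304 of 13704 genes were called, 5707 of them higher in microglia, so nothing particular to these lists is read from the counts. The highest by mean FPKM over all libraries were Alas1 (36.3), the housekeeping counterpart of Alas2, and Ppox (32.3), Urod (21.1) and Fech (15.3), and among the carriers Tmem14c (41.6), Slc25a37 (14.7), Slc25a38 (9.99) and Abcb6 (5.10). The medians of these 2 lists were 0.52 and 0.64 on the log2 scale, against 0.37 over all genes.

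Genes that clear hemoglobin were mainly on the side of the macrophage libraries. Those libraries also held the neutrophil genes given above, whose part in these values was not tested. Of 12, 11 could be tested, and edgeR called 8 lower and 1 higher in microglia, where 16.9% of all genes were called and 1459 of those 2311 were lower, with a list median of -1.99 against 0.37 over all genes. Haptoglobin (Hp), which binds free hemoglobin, was at 60.3 to 648 FPKM in the macrophage libraries and at 0.10 to 6.17 in those of microglia (-8.04, SE 0.78, edgeR adjusted p = 3.39e-05). The heme oxygenase Hmox1 was at 10.6 to 88.6 FPKM and 4.55 to 50.4 FPKM, respectively (-1.99, SE 0.33, adjusted p = 0.00131). The ferritin chains Fth1 (-2.75, adjusted p = 0.00333) and Ftl1 (-4.03, adjusted p = 0.00903), the biliverdin reductases Blvra (-1.96) and Blvrb (-2.86) and the heme transporter Slc48a1 (-1.56) were lower too, and Lrp1, the receptor for hemopexin-bound heme, was higher (2.42, adjusted p = 0.000126). Hmox2 was called lower (-1.01, adjusted p = 0.0178) but was higher with library totals (0.40) and on FPKM (0.39), and with library totals 3 of the list, Hp, Fth1 and Ftl1, were called lower. Cd163 had a log2 fold change of -4.19 that was not called (SE 2.07, edgeR adjusted p = 0.190), and it was at most 1.43 FPKM in microglia. That test included the CD163KO combinations, where macrophages held at most 0.01 FPKM of Cd163. In the WT combinations macrophages held 7.95 to 65.3 FPKM and microglia 0 to 1.43. In CD163KO against WT macrophages, Cd163 was the only gene of this list called.

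**Figure D5:**
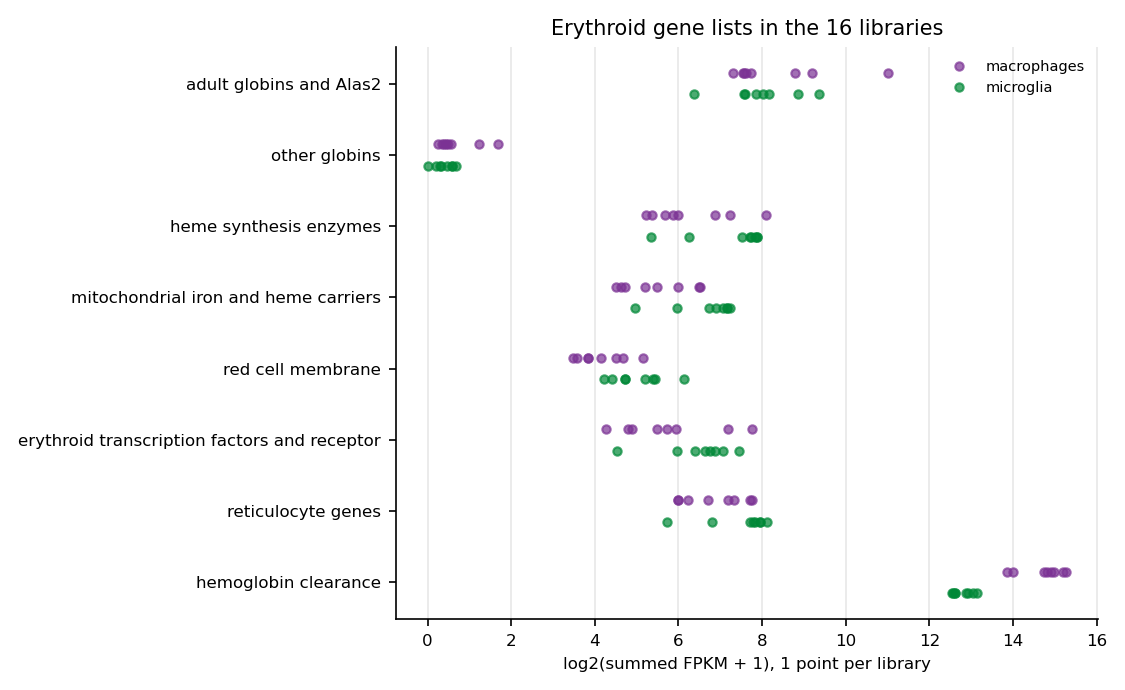
Summed FPKM of 8 gene lists as log2(sum + 1), 1 point for each macrophage library (purple) and microglia library (green). The adult globins with Alas2 reach 2068 FPKM in 1 macrophage library while the other globins stay at or under 2.21, and the genes of hemoglobin clearance lie at 14821 to 39435 in macrophages, above the 5923 to 9059 of microglia, with most of that sum from Ftl1 and Fth1.

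The genes whose levels were most like the summed globin FPKM were ranked by Pearson's r of log2(FPKM + 1), centred within each population, over the 16 libraries and 10336 genes with a mean of at least 1 FPKM. The 8 with the highest r were Septin4 (0.82), Kcne2 (0.82), Podxl2 (0.78), Fabp3 (0.77), Whrn (0.76), Tal1 (0.76), Peli2 (0.76) and Nbl1 (0.76). Of these, 7 had their highest macrophage value in female WT MONO, the library with the highest globin level. Kcne2, a potassium channel subunit of the choroid plexus list, reached 15.1 FPKM there and had a median of 0.015 in macrophages. Tal1, an erythroid transcription factor, was at most 0.82 FPKM in macrophages and at most 5.56 in microglia. Without the male CD163KO MONO libraries 2 of the 8 were among the top 8, and with TMM-scaled CPM 3 of the 8, so the ranking is a description of these libraries.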

How the data were processed

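RNA of sorted macrophages and microglia was sequenced by the authors by SMART-seq2, and the submitters' processing notes name Bowtie2, RSEM and DESeq2 with the mm10 build. For each of 16 libraries the deposited table holds, per RefSeq transcript, an expected count from RSEM, deposited without normalization, and an FPKM, scaled by the authors to transcript length and library. Transcripts not listed were taken as 0. Of 27787 transcripts, 27632 were matched to symbols of RefSeq (GRCm38.p6), and both values were summed per symbol. Totals were 8648751 to 21433841 expected counts, and precision is given as 95% Wilson intervals for shares and as a limit of 3 counts where a count was 0.

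Expected counts were rounded and tested with edgeR 4.0.16 (quasi-likelihood test, TMM factors, filterByExpr) in R 4.3.3, with Benjamini-Hochberg adjustment over all genes tested, and called at an adjusted p of at most 0.05 and a log2 fold change of at least 1. Microglia and macrophages were compared with the combination of sex, genotype and treatment as a block over 7 combinations, and PFF, CD163KO and sex in additive models over 7 libraries of a population. Alternatives were RLE factors, library totals, no filter, DESeq2 1.42.0, limma 3.58.1 on log2(FPKM + 1) and log2(FPKM + 0.1), adjusted p alone, the male CD163KO MONO libraries included, paralogs merged and each library or pair left out. Leaving out 2 pairs of doubtful libraries together was added after seeing the data. The method was tested on simulated data, where it missed most of the changed genes in every comparison and nearly all in the macrophage comparisons and the tests of differences between effects, so that a gene not called may still have changed. The 5 genes and all lists were chosen with earlier results of these data known. Genes of the lists are named where they were called, or otherwise the up to 4 with the highest mean FPKM, and Cd163, Hp, Hmox1 and the 8 genes most like the globins are named as well. Slc4a1, Kel, Ahsp, Gata1 and Klf1 were named after their values were seen.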

Additional observations from a re-analysis of the deposited data

Results flagged for a closer look

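A library stood apart from the other 7 of its population, by the ratio of the gap to its nearest neighbour over the whole range against Dixon's 95% critical value, in 4 of 10 groups examined (5 genes in each population). Chance marks about 1 in 20 groups if their values are normal and independent, whereas FPKM are skewed and the Hba genes share reads. On log2(FPKM + 1), a scale added after seeing the data, 1 of the 4 stays past that value, Alas2 in macrophages (ratio 0.621). Hba-a1 in female WT MONO macrophages was at 1034 FPKM, where the next library held 313 (ratio 0.751). Hba-a2 in the same library was at 755 FPKM, where the next held 162 (ratio 0.815). Alas2 in male WT MONO macrophages was at 1.76 FPKM, from 64 counts, where the next library held 0.47 (ratio 0.733). Alas2 in male WT MONO microglia was at 3.38 FPKM, from 55 counts, where the next held 1.45 (ratio 0.571). Hbb-bs and Hbb-bt were not marked in either population.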

How the results depend on the processing

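The number of the 5 genes called between microglia and macrophages was 2 in the main test and stayed at 2 with RLE factors, with DESeq2, on adjusted p alone and without the male WT PFF and female CD163KO MONO pairs together (added after seeing the data). With paralogs merged, the Hba sum was called and the Hbb sum was not. The count was 1 without a filter on low counts and 0 with library totals only, with limma on log2(FPKM + 1), with limma on log2(FPKM + 0.1) and with male CD163KO MONO, and it ranged from 0 to 3 when each pair was left out. Over all genes, 2311 were called between the populations in the main test, 6304 with library totals, 4266 with DESeq2, 5739 with limma on log2(FPKM + 1) and 3698 without the 2 pairs. No alternative run gave a call for the 5 genes in the other 11 comparisons, where leaving out libraries was not run for the 5 tests of differences between effects.

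Log2 fold changes that turned sign in the comparisons of groups follow, and none was called under the alternative named. Signs also turned in 4 of the 5 tests of differences. Of the 5 genes, 1 was positive for PFF between populations in the main test and 0 to 2 under alternatives, 4 and 4 to 5 for CD163KO between populations, and 5 and 4 to 5 in macrophages and 4 and 2 to 5 in microglia for PFF between genotypes. For microglia against macrophages, Hbb-bs was 0.37 with library totals and 0.11 with limma on either pseudocount, Hmox2 was 0.40 with library totals and 0.39 with limma on either pseudocount, and Alas2 was -0.89 without the 2 pairs together and between -0.042 and 1.58 with each pair left out. For PFF against MONO in macrophages, library totals gave -0.22 for Hba-a1, -0.35 for Hba-a2 and -0.25 for Alas2. The pseudocounts of 1 and 0.1 in limma gave -0.084 and -0.083 for Hba-a1, 0.17 and 0.18 for Hbb-bs and -0.40 and -0.93 for Alas2. Hbb-bs was 0.60 with male CD163KO MONO and 0.15 as the merged pair. Leaving out each library gave -0.80 to 0.74 for Hba-a1, -0.76 to 1.23 for Hba-a2, -1.20 to 1.12 for Hbb-bs, -0.088 to 3.23 for Hbb-bt and -1.53 to 1.97 for Alas2. For PFF against MONO in microglia, Hba-a2 was -0.33 with library totals, -0.48 and -0.49 with limma, -0.021 with male CD163KO MONO and -0.11 as the merged pair, Hbb-bs was 0.037 with male CD163KO MONO and Hbb-bt -0.031 as the merged pair. Leaving out each library gave -0.028 to 0.22 for Hba-a2, -0.87 to 0.26 for Hbb-bs, -0.70 to 3.10 for Hbb-bt and -4.34 to 3.34 for Alas2. For CD163KO against WT in microglia, library totals gave 0.021, 0.074 and 0.087 for Hba-a1, Hba-a2 and Hbb-bs, limma with a pseudocount of 1 gave 0.20, 0.21, 0.48 and 0.10 for Hba-a1, Hba-a2, Hbb-bs and Alas2, and limma with 0.1 gave 0.21, 0.21, 0.51 and 0.42. Leaving out each library gave -0.64 to 0.62 for Hbb-bs, -3.09 to 0.94 for Hbb-bt and -4.37 to 3.45 for Alas2. For CD163KO against WT in macrophages it gave -2.60 to 0.40 for Hba-a2. For males against females it gave -1.94 to 0.32 for Hbb-bs, -2.64 to 0.63 for Hbb-bt and -1.12 to 2.70 for Alas2 in macrophages, and -0.050 to 2.17 for Hbb-bt in microglia. The cause of these changes was not tested.

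In microglia the relation of Hbb-bs with Hba-a1 passed an adjusted exact permutation p of 0.05 on log2(FPKM + 1) (r = 0.91). With male CD163KO MONO included, that with Alas2 passed it by Pearson's r (0.78) and not by Spearman's rho (0.78, adjusted exact permutation p = 0.0751). Its r was 0.30 without the 2 libraries farthest from the median of Hbb-bs. Alas2 and Hbb-bt are limited by depth, since several libraries hold 0 to 20 counts of them. No paired analysis by replicate number was possible because each combination has 1 library.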
